A study of Chlorocebus aethiops with 36 samples.

Results

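Liver biopsies taken from the same 12 male African green monkeys (Chlorocebus aethiops) at week 12 and at baseline were compared, with both treatment arms pooled. The members are the 24 arrays labelled with these time points, out of 36 arrays in the series, and each week 12 array was paired with the baseline array of the same animal through the animal's identity in the labels. At week 12, 6 animals had received anti-miR-33, an antisense oligonucleotide against the microRNA miR-33, and the other 6 had received a control anti-miR. Both agents were given under the skin at 5 mg/kg through week 12, and all 12 animals had by then eaten a high carbohydrate, moderate cholesterol diet for 8 weeks. At baseline (week -5) the same 12 animals were untreated and ate normal chow, and their arm was taken from their later labels. No animal was left untreated or on chow until week 12, so diet, injections, elapsed time and earlier biopsies cannot be told apart. The animals' age was not given in the sources used here. RNA was hybridised to human arrays (HG-U133 Plus 2.0), so a probe set's level also depends on how well the monkey transcript matches a human probe, and a level was compared only with the same probe set's level in other biopsies.

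The liver turns dietary carbohydrate into fatty acids through a pathway switched on by insulin and sugar, in which the transcription factor SREBP-1c (encoded by SREBF1) activates the synthesis, elongation and desaturation of fatty acids. Cholesterol that reaches the liver instead holds back the related factor SREBP-2, and with it the genes of cholesterol synthesis and uptake. Besides hepatocytes, a liver biopsy holds the fenestrated endothelium of the sinusoids, which scavenges blood-borne molecules, stellate cells, which lay down matrix, and resident macrophages and lymphocytes, which carry antigen-presenting MHC molecules.

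RNA quality differed between the time points in almost every animal. Each array carries probe sets at the 3′ and the 5′ end of GAPDH and ACTB, and the 3′ minus 5′ difference on the log2 scale, averaged over both genes, is larger where the RNA or its labelled copy is shorter. This value was 1.83 ± 0.16 at week 12 (1.54 to 2.05) and 2.57 ± 0.43 at baseline (1.79 to 3.30; SD, n = 12 each). It fell by 0.74 ± 0.14 (SE) and was lower at week 12 in 11 of 12 animals (exact two-sided permutation test over sign changes, p = 0.000977, where the smallest possible p was 0.000488). The change ranged between -1.62 in anti-miR-33 animal 4 and 0.02 in anti-miR-33 animal 1, and only anti-miR-33 animal 1 and control animal 6 (-0.05) moved by less than 0.1. The first principal component of the 24 arrays held 29.9% of the variance, and its correlation with the 3′ minus 5′ value had a size of 0.963, as a description of arrays that share a platform. The hepatocyte list averaged 11.8 to 12.4 at week 12 and 12.2 to 12.3 at baseline, so the tissue label was borne out by its defining markers. The list's mean was higher at week 12 in 11 of 12 animals, all but control animal 5. The median change of its genes was 0.02 without and with the covariate. The week 12 array of control animal 5 stood apart, with a highest value of 13.75 against 14.63 to 14.78 on the other arrays and the lowest hepatocyte mean of all, 11.8. Of 18 hepatocyte markers tested, 1 was higher, TDO2 (tryptophan dioxygenase, 0.84 ± 0.11), and 1 was lower, ASGR1 (the asialoglycoprotein receptor, -0.18 ± 0.06); without control animal 5 there were 4 higher and 0 lower. Leaving out that animal changed the counts of called genes in 16 of the 33 gene lists. Higher genes then numbered 4 in place of 6 for fatty acid synthesis, 1 in place of 2 for triglyceride and lipid droplet genes and for lymphocyte markers, and 13 in place of 11 for complement and coagulation. Lower genes numbered 3 in place of 5 for pericentral and periportal genes and for drug metabolism, 8 in place of 10 for fatty acid oxidation, and 1 in place of 3 for oxidative phosphorylation. Cholesterol synthesis had 3 higher and 4 lower in place of 2 and 6, and the immediate early and stress genes 5 and 4 in place of 6 and 6. Every other count of higher or lower genes in a list moved by at most 1.

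**Figure D1:**
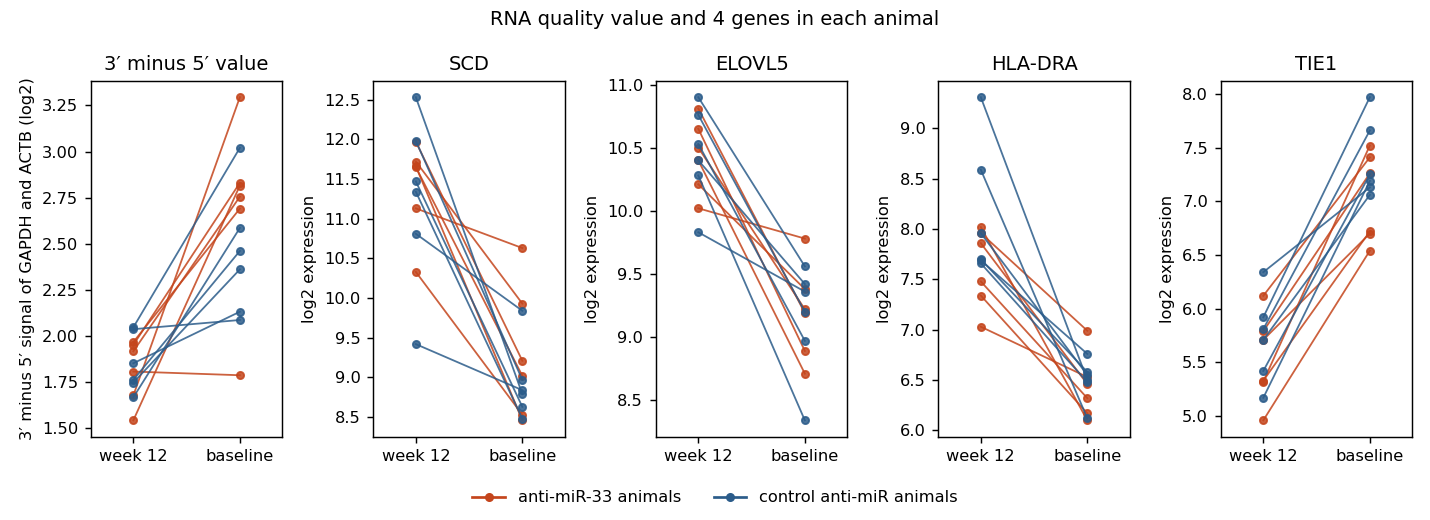
RNA quality value (left) and log2 expression of SCD, ELOVL5, HLA-DRA and TIE1 (the other panels) at week 12 and at baseline, with 1 line per animal (n = 12) and vertical axes that do not start at 0. The quality value is lower at week 12 in 11 of 12 animals; SCD, ELOVL5 and HLA-DRA are higher and TIE1 is lower at week 12 in 12 of 12.

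Across the liver transcriptome, 1594 of 13634 genes tested were higher (11.7%) and 2392 were lower (17.5%) at week 12 than at baseline. The test was limma on the within-animal change, with Benjamini-Hochberg adjusted p under 0.05, and the 12 replicates are separate animals. A change of at least 1 on the log2 scale was reached by 29 of the higher and 35 of the lower genes. The highest changes among called genes were those of SCD, RGCC, HLA-DRA, THRSP and PSAT1, and the lowest those of EFNB2, TIE1, CETP, FCN2 and HBB. The week 12 and baseline values did not overlap at all for 16 genes that were higher (0.117%) and 66 genes that were lower (0.484%). A difference between the arms in the change was called for no gene (0 of 13634, smallest adjusted p 0.998). An unadjusted p under 0.05 for that difference was found for 382 genes. That is a smaller share than the 0.05 that would pass if no gene differed. With 6 animals per arm, the lack of calls does not show that the arms changed alike.

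To ask which changes remain at equal RNA quality, the 3′ minus 5′ value was added to the fit as a covariate, which gives the expected change of an animal whose quality value did not move. With it, 18 genes were higher (0.132%) and 124 were lower (0.909%), and 1539 genes had an unadjusted p under 0.05. Calls in the same direction in both fits were kept by 14 of the 1594 higher genes (0.878%, or 0.103% of all genes tested) and by 119 of the 2392 lower genes (4.97%, or 0.873% of all genes tested). Among genes that had changed by at least 1 on the log2 scale, 2 of 29 higher and 30 of 35 lower genes kept the call. The median of the ratio of adjusted to unadjusted change was 0.242 over the higher genes and 0.553 over the lower genes. The slope on the quality value itself was called for 824 genes (6.04%), among them 448 of the higher genes (28.1%) and 174 of the lower genes (7.27%). The covariate made the standard error larger by a median factor of 1.86, so a lost call does not show that a gene did not change. The counts with the covariate also rested on single animals: there were 10 higher and 80 lower genes without anti-miR-33 animal 1, 7 and 77 without control animal 4, and 10 and 118 without anti-miR-33 animal 5. In the 2 animals whose quality value moved by less than 0.1, the genes called higher without the covariate had a median change of 0.08, against 0.35 in the other 10 animals, and the genes called lower had -0.13, against -0.30. These genes were called on the same 12 animals, so the medians are a description with no test. One gene was called in both fits in opposite directions: FNTA, the alpha subunit of protein farnesyltransferase, was higher by 0.40 ± 0.13 without the covariate (limma adjusted p = 0.0331) and lower with it, at -0.45 ± 0.10 (adjusted p = 0.0400), with a slope of -1.15. A further 8 genes were called with the covariate alone, 4 higher and 4 lower, among them CLDN2, a claudin of tight junctions, at 0.67, and ARRDC3, an arrestin-domain protein, at -1.50. FNTA, CLDN2 and ARRDC3 are named after their values were seen.

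**Figure D2:**
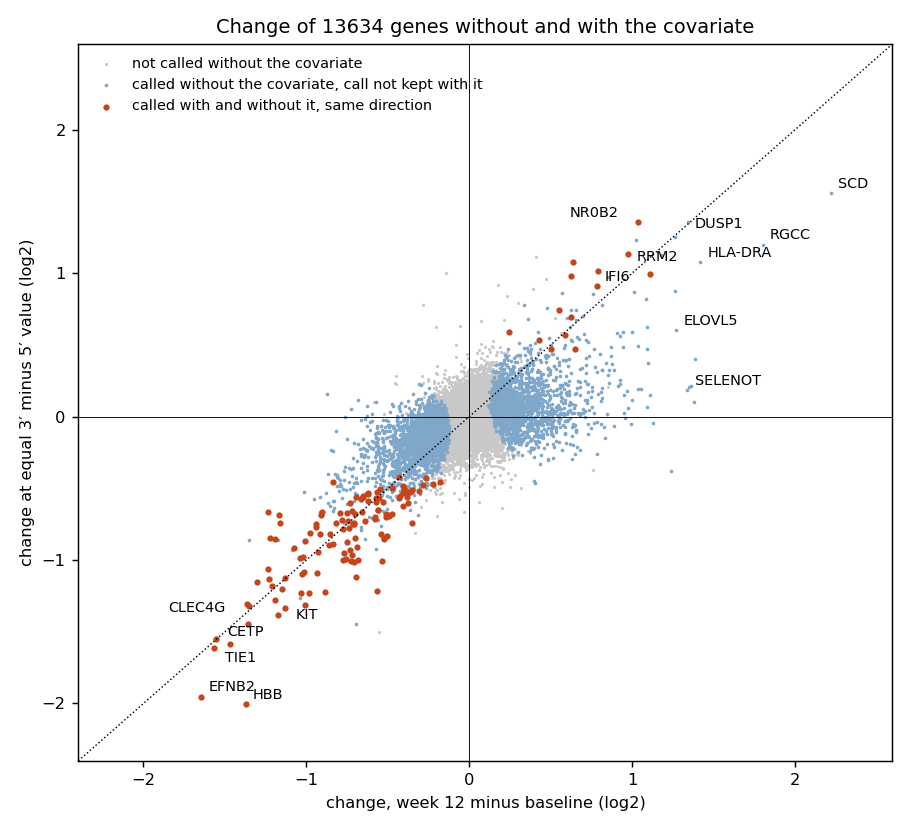
Change at week 12 relative to baseline without the covariate (horizontal axis) and at equal 3′ minus 5′ value (vertical axis), both log2, for 13634 genes, with equal changes on the dotted line. Genes called in both fits in the same direction (14 higher, 119 lower) are the larger orange points, and many of the genes higher without the covariate lie close to 0 on the vertical axis.

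The largest rise was that of SCD, the desaturase that makes monounsaturated fatty acids. SCD had 9.42, 11.56 and 12.53 at week 12 (lowest, median and highest log2 level), against 8.46, 8.90 and 10.63 at baseline. The ranges overlapped, but every animal was higher at week 12, by 2.22 ± 0.25 on the log2 scale (SE, n = 12; 4.67-fold, limma adjusted p = 8.42e-06). ELOVL5, an elongase of polyunsaturated fatty acids, had 9.83, 10.45 and 10.90 at week 12, against 8.34, 9.21 and 9.78 at baseline. These ranges did not overlap, and the change was 1.27 ± 0.13 (adjusted p = 3.09e-06, higher in 12 of 12). Another probe set for ELOVL5, at a low level, changed by -0.01. HLA-DRA, the shared chain of the MHC class II molecule HLA-DR, had 7.03, 7.78 and 9.31 at week 12, against 6.10, 6.49 and 6.99 at baseline, with no overlap. Its change was 1.42 ± 0.16 (adjusted p = 7.15e-06, higher in 12 of 12). TIE1, a receptor tyrosine kinase of endothelial cells, had 4.96, 5.71 and 6.34 at week 12, against 6.54, 7.22 and 7.97 at baseline. Here all week 12 values lay below all baseline values, and the gene fell by 1.57 ± 0.11 (adjusted p = 3.83e-08, lower in 12 of 12).

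These 4 genes differed in how they moved with RNA quality. At equal 3′ minus 5′ value the change of TIE1 was -1.61 ± 0.21 (limma adjusted p = 0.000638), and the gene had fallen by 1.58 in anti-miR-33 animal 1 and by 0.79 in control animal 6, whose quality values hardly moved. HLA-DRA had an adjusted change of 1.08 ± 0.29 (adjusted p = 0.0957), and its change in those 2 animals was 0.97 and 1.12. The adjusted change of SCD was 1.56 ± 0.45 (adjusted p = 0.126), with 0.50 and 0.58 in the same 2 animals. ELOVL5 had an adjusted change of 0.60 ± 0.16 (adjusted p = 0.0926) and a slope of -0.90 on the quality value (slope adjusted p = 0.00806), with 0.24 and 0.47 in those animals. So only TIE1 kept its call in this fit, whose covariate averages GAPDH and ACTB. With GAPDH alone as covariate, ELOVL5 also passed (0.62, limma adjusted p = 0.0478). Without the replicate block of the animal, the adjusted changes were 1.57 for SCD (adjusted p = 0.0483), 0.71 for ELOVL5 (0.0191) and 1.06 for HLA-DRA (0.0297), all past the threshold. With all 36 arrays in the fit they were 1.60 for SCD (adjusted p = 0.00276), 0.72 for ELOVL5 (0.00333) and 1.41 for HLA-DRA (0.000575), so the calls of these 3 genes depend on the fit.

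**Figure D3:**
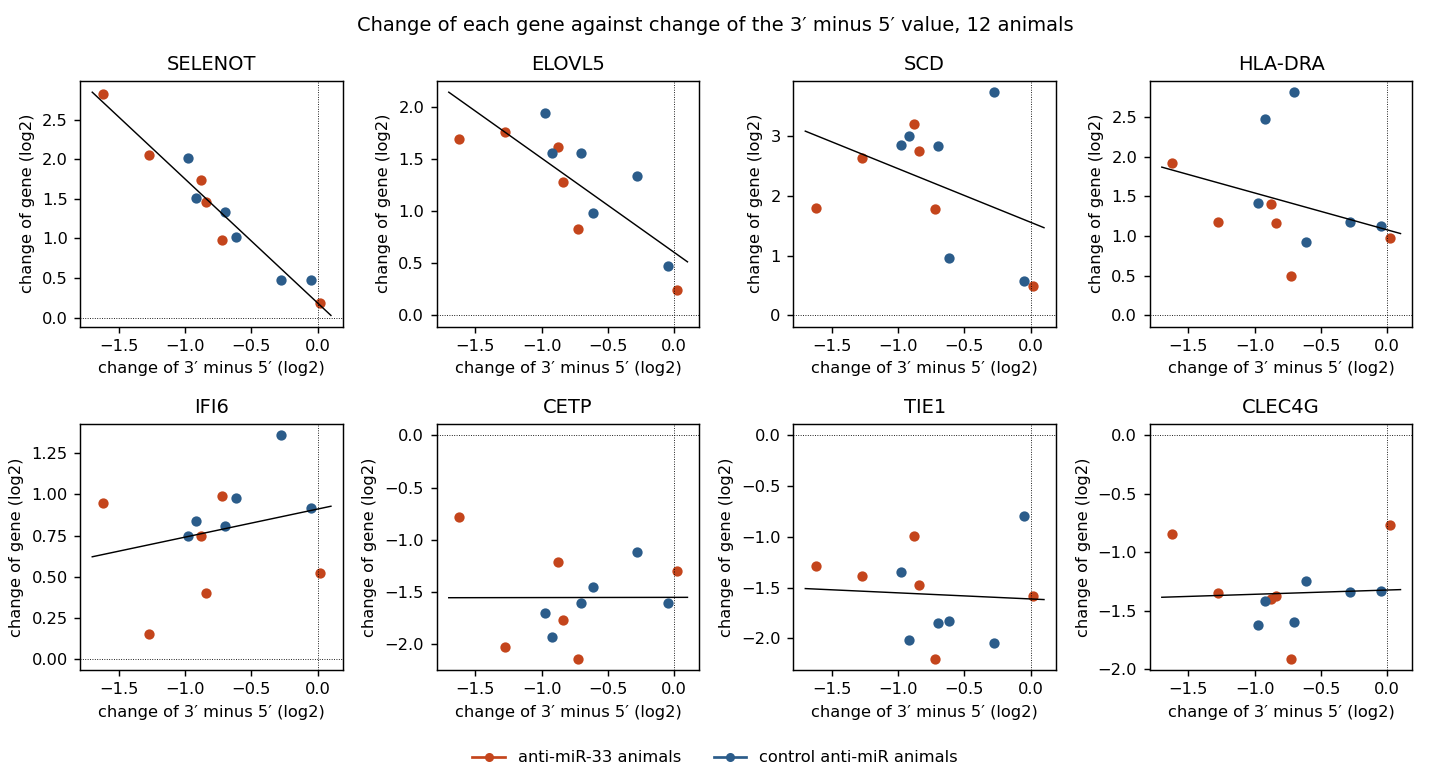
Change of 8 genes between baseline and week 12 (vertical axes, log2) against the change of the 3′ minus 5′ value (horizontal axes, log2), with 1 point per animal (n = 12) and the covariate fit as a line; the line's value at 0 is the adjusted change. SELENOT and ELOVL5 fall along their lines towards 0 at the right, while CETP, TIE1 and CLEC4G stay below 0 across the whole range, also in the 2 animals whose quality value moved by less than 0.1.

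The genes of fatty acid synthesis, elongation and desaturation that changed were nearly all higher at week 12. Those of cholesterol synthesis and uptake that changed were mostly lower (6 lower and 2 higher of 19 tested). Of 11 tested genes for desaturation and elongation, 6 were higher and 1 was lower, with a median change of 0.34, where 11.7% of all genes were higher, 17.5% lower and the median of all genes was -0.01. FADS2, a desaturase of polyunsaturated fatty acids, had 6.15, 6.75 and 7.41 at week 12, against 5.65, 6.17 and 6.37 at baseline, and rose by 0.66 ± 0.09 (limma adjusted p = 7.24e-05, higher in 12 of 12). Its adjusted change was as large, 0.67 ± 0.18, without passing (adjusted p = 0.0964). HSD17B12, a reductase in the elongation of fatty acids, rose by 0.47 ± 0.07. The 1 lower gene was ACSL5, an acyl-CoA synthetase named after its values were seen, which fell by 0.50. Of 18 tested genes for fatty acid synthesis, 6 were higher and none lower (median 0.16). None kept the call with the covariate, where only 0.103% of all genes kept it higher. THRSP, a regulator of lipogenesis, rose by 1.39 ± 0.32 and had an adjusted change of 0.41 ± 0.54. SREBF1 rose by 1.26 ± 0.30, was higher in 10 of 12 animals, and spread widely at week 12 (6.54, 7.71 and 10.48, against 5.82, 6.52 and 7.81 at baseline). In anti-miR-33 animal 1 SREBF1 changed by -1.10, and a second probe set for the gene changed by 0.12. INSIG1, which holds SREBP proteins in the endoplasmic reticulum, rose by 0.66 ± 0.17 (higher in 10 of 12), and 2 further probe sets changed by 0.56 and -0.01. ACACB, the acetyl-CoA carboxylase of the mitochondrial surface, rose by 0.30 ± 0.08, and 2 further probe sets rose by 0.22 and 0.23, but 3 others changed by -0.13, -0.10 and -0.07. The mean over all its probe sets changed by 0.07 and did not pass (limma adjusted p = 0.530).

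Among 19 tested genes of cholesterol synthesis and uptake, 6 were lower and 2 higher, with a median of -0.04, where 17.5% of all genes were lower and 11.7% higher. The higher ones were INSIG1, which is also in the synthesis list, and INSIG2, its relative (0.33), named after its value was seen. HMGCS1, the synthase at the entry of the mevalonate pathway, had 5.70, 6.23 and 6.96 at week 12, against 6.32, 7.20 and 8.51 at baseline. It fell by 1.08 ± 0.14 and was lower in 12 of 12 animals (limma adjusted p = 2.87e-05), although the ranges overlapped. SQLE, the squalene epoxidase, fell by 0.67 ± 0.11 in 12 of 12 animals, with a second probe set at 0.01. FDPS, which makes farnesyl diphosphate, fell by 0.71 ± 0.15 and was lower in 10 of 12. With the covariate the changes were -0.93 ± 0.26 for HMGCS1, -0.79 ± 0.21 for SQLE and -0.75 ± 0.29 for FDPS, and none passed (adjusted p 0.125, 0.0926 and 0.303). Without the replicate block of the animal all 3 passed, at -1.10 for HMGCS1 (adjusted p = 0.0483), -0.75 for SQLE (0.0248) and -0.95 for FDPS (0.0474).

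The genes that export, store and burn lipid showed no common direction. Their counts stand beside 11.7% of all genes higher and 17.5% lower. Of 14 tested targets of the liver X receptors, which sense oxysterols, 6 were higher and 4 lower (median 0.14). ABCA1, the exporter of cellular cholesterol and a known target of miR-33, rose by 0.56 ± 0.13, by 0.70 in the anti-miR-33 animals and 0.41 in the control animals, and its adjusted change was -0.07 ± 0.18. The difference between arms was not called for ABCA1 or any other gene. Of 20 tested genes from the literature on miR-33 targets, 6 were higher and 1 was lower (median 0.09). None kept the call, where only 0.103% of all genes kept it higher and 0.873% lower. In the triglyceride and lipid droplet list, 2 of 24 genes were higher and 5 lower (median 0.00), among them GPAT4, an acyltransferase of triglyceride synthesis, which fell by 0.63 ± 0.10 (a second probe set, at a low level, changed by 0.12), and G0S2, an inhibitor of lipolysis, which rose by 0.61 ± 0.15. For fatty acid oxidation and ketone bodies, 5 of 28 genes were higher and 10 lower (median -0.14). ACAA1, the thiolase of peroxisomes, fell by 0.81 ± 0.12 in 12 of 12 animals, and its adjusted change was -0.41 ± 0.19 (adjusted p = 0.449). ACAA2, the mitochondrial thiolase, fell by 0.55 ± 0.10, with 2 further probe sets at -0.06 and 0.04.

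NR0B2, the small heterodimer partner that represses bile acid synthesis, was among the 14 higher genes that kept the call. It had 8.15, 8.96 and 9.60 at week 12, against 7.10, 7.97 and 8.46 at baseline, and rose by 1.04 ± 0.16 (higher in 11 of 12). Its adjusted change was larger, 1.36 ± 0.30 (limma adjusted p = 0.0373), and it was lost without anti-miR-33 animal 5 (1.35, adjusted p = 0.0542) or 6 (1.36, 0.0541) and without control animal 1 (1.38, 0.0514), 4 (1.24, 0.154) or 6 (1.23, 0.131). ABCB11, the bile salt export pump, rose by 1.10 ± 0.15 but its adjusted change was 0.37 ± 0.20, with a called slope of -0.98 (slope adjusted p = 0.0194). SLC10A1, the bile acid uptake carrier, rose by 0.37 ± 0.06 in 12 of 12 animals (adjusted change 0.28 ± 0.10), and ATP8B1, a phospholipid flippase, fell by 0.57 ± 0.08, while its second probe set, at a lower level, changed by 0.15. In all, 5 of 16 tested genes of bile acid synthesis and transport were higher and 5 lower, where 11.7% of all genes were higher and 17.5% lower.

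CETP, which moves cholesteryl esters between lipoproteins and in human liver comes largely from Kupffer cells, was the only lipoprotein gene to keep its call. It had 7.43, 8.03 and 9.07 at week 12, against 8.89, 9.65 and 10.15 at baseline, and the ranges barely overlapped. CETP fell by 1.55 ± 0.10 in 12 of 12 animals (limma adjusted p = 2.19e-08), and at equal RNA quality the change was the same, -1.55 ± 0.19 (adjusted p = 0.000492). It fell by 1.54 in the anti-miR-33 and by 1.57 in the control animals. Of the 17 tested lipoprotein genes, 5 were lower and 1 higher, where 17.5% of all genes were lower and 11.7% higher. APOM, the apolipoprotein that carries sphingosine-1-phosphate, rose by 0.28 ± 0.05, and LCAT, which esterifies plasma cholesterol, fell by 0.37 ± 0.09. A second probe set for LCAT, at a low level, changed by 0.08, and the mean of the gene's probe sets did not pass (-0.15, limma adjusted p = 0.130).

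Endothelial genes were lower at week 12, and most of the largest of these falls remained with the covariate. Of 22 tested endothelial receptors and junction genes, 14 were lower and none higher (median -0.31, and -0.34 with the covariate), where 17.5% of all genes were lower. Of 14 markers of the sinusoidal endothelium, 9 were lower and 1 was higher (median -0.32, and -0.54 with the covariate). The mean of each list was lower in 12 of 12 animals. In whole biopsies, fewer cells of a type and less RNA per cell cannot be told apart. With the covariate, 7 of the 22 and 6 of the 14 were still called lower, against 0.873% of all genes called in both fits. The 1 higher gene was CD36, a fatty acid translocase that hepatocytes and macrophages also express, which rose by 0.95 and is named after its value was seen.

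CLEC4G, a lectin of the sinusoidal endothelium, had 6.00, 6.42 and 6.93 at week 12, against 7.13, 7.78 and 8.33 at baseline. The ranges did not overlap, and CLEC4G fell by 1.35 ± 0.08 in 12 of 12 animals (limma adjusted p = 1.62e-08). Its adjusted change was -1.32 ± 0.16 (adjusted p = 0.000311). FCN2, a lectin of the complement system made in liver, had 8.43, 9.03 and 9.29 at week 12, against 9.61, 10.48 and 11.14 at baseline, again with no overlap. It fell by 1.47 ± 0.13 and had an adjusted change of -1.59 ± 0.26 (adjusted p = 0.00409). A second probe set for FCN2, at a low level, changed by 0.03, and the mean of the gene's probe sets had an adjusted change of -0.62 that did not pass (adjusted p = 0.0624). The scavenger receptors of the sinusoids also fell. STAB1 fell by 0.94 ± 0.07 and STAB2 by 0.86 ± 0.09, and with the covariate the changes were -0.75 ± 0.12 (adjusted p = 0.00326) and -0.89 ± 0.18 (adjusted p = 0.0173). The adjusted call of STAB2 was lost without anti-miR-33 animal 4 (-0.75, adjusted p = 0.0631) or control animal 6 (-0.86, adjusted p = 0.0717). FCGR2B, an inhibitory Fc receptor, and F8, coagulation factor VIII, complete the 6 sinusoidal genes that kept the call, at adjusted changes of -1.31 and -0.91, and are named after their values were seen.

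EFNB2, an ephrin ligand of arterial endothelium, had the lowest change of all called genes. It had 5.97, 6.28 and 6.95 at week 12, against 7.29, 7.96 and 8.90 at baseline. No week 12 value reached the baseline range, and EFNB2 fell by 1.64 ± 0.15 (limma adjusted p = 9.48e-07). The adjusted change was -1.95 ± 0.28 (adjusted p = 0.00152). ENG, the co-receptor for TGF-beta family ligands on endothelium, had 5.80, 6.13 and 6.39 at week 12, against 6.47, 7.29 and 7.86 at baseline. ENG fell by 1.19 ± 0.08 in 12 of 12 animals, and less with the covariate, by 0.85 ± 0.11 (adjusted p = 0.000638), and its slope of 0.46 on the quality value was itself called (slope adjusted p = 0.0383). Its second probe set changed by 0.05. FLT1, a receptor for VEGF, fell by 0.62 ± 0.06 and had an adjusted change of -0.59 ± 0.11, while 2 further probe sets changed by -0.20 and 0.11 and the mean over probe sets lost the adjusted call (-0.32, adjusted p = 0.138). ESAM, an adhesion molecule of endothelial junctions, fell by 0.57 ± 0.05. Its adjusted change of -0.52 ± 0.09 (adjusted p = 0.00789) missed the threshold without control animal 6 (-0.48, adjusted p = 0.0508). It also missed it within the anti-miR-33 animals (-0.55, 0.326) or the control animals alone (-0.51, 0.699). Most kept calls were lost within 1 arm, those of TIE1, EFNB2 and CETP in both arms. Of 133 kept genes, 6 stayed called in the anti-miR-33 and 5 in the control animals. VE-cadherin (CDH5), von Willebrand factor (VWF) and claudin 5 (CLDN5) complete the 7 endothelial genes that kept the call, with adjusted changes of -1.01, -0.77 and -0.42, named after their values were seen. KLF2, a transcription factor that flow induces in endothelium, had 5.97, 6.62 and 7.00 at week 12, against 7.16, 7.63 and 8.19 at baseline, with no overlap. KLF2 fell by 1.01 ± 0.12, and its adjusted change of -1.08 ± 0.24 (adjusted p = 0.0319) lost the call without anti-miR-33 animal 1 (-1.19, adjusted p = 0.0798), 2 (-1.07, 0.0503), 3 (-1.07, 0.0528) or 4 (-0.89, 0.111) and without control animal 1 (-1.05, 0.0544) or 4 (-0.92, 0.150). A second probe set for KLF2 changed by -0.08.

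RSPO3, a WNT amplifier made by the endothelium of the central vein, fell by 0.76 ± 0.08 in 12 of 12 animals and had an adjusted change of -0.99 ± 0.14 (limma adjusted p = 0.00185). KIT, a receptor kinase that marks pericentral endothelium in mouse liver as well as mast cells, fell by 1.13 ± 0.16, and the change was -0.65 in the anti-miR-33 and -1.61 in the control animals, a difference that was not called. The adjusted change of KIT, -1.33 ± 0.30 (adjusted p = 0.0374), lost its call in 7 of the 12 fits that left out 1 animal: without anti-miR-33 animal 3 (-1.35, adjusted p = 0.0528), 4 (-1.36, 0.075) or 6 (-1.34, 0.053), and without control animal 1 (-1.28, 0.0633), 2 (-1.27, 0.062), 4 (-1.11, 0.164) or 6 (-1.13, 0.146). It was also lost without the replicate block (-1.18, adjusted p = 0.0550). Of 20 pericentral and periportal genes, 4 were higher and 5 lower, where 11.7% of all genes were higher and 17.5% lower. RSPO3 and KIT were the 2 that kept the call. LDB2, a cofactor of LIM domain transcription factors, fell by 1.17 ± 0.10 and had an adjusted change of -1.38 ± 0.19, with a second probe set, at a low level, at 0.16. ECRG4, a secreted peptide precursor, fell by 1.36 ± 0.10, and the adjusted change was -1.44 ± 0.19. INMT, an indolethylamine methyltransferase, fell by 1.31 ± 0.08 and had an adjusted change of -1.15 ± 0.16. ADAMTS5, a protease that cleaves proteoglycans, fell by 1.36 ± 0.10, with an adjusted change of -1.31 ± 0.20 (adjusted p = 0.00259) that missed the threshold without the replicate block (-1.17, adjusted p = 0.0547).

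Stellate cell and matrix genes were lower as well. Of 21 tested, 13 were lower and none higher (median -0.31, and -0.33 with the covariate), where 17.5% of all genes were lower. With the covariate 2 of the 21 kept the call, where 0.873% of all genes did, and the mean of the list was lower in 12 of 12 animals. PDGFRA, a receptor for platelet-derived growth factor, had 7.01, 7.38 and 7.98 at week 12, against 7.66, 8.21 and 8.62 at baseline. It fell by 0.74 ± 0.07 and had an adjusted change of -0.73 ± 0.13 (limma adjusted p = 0.00732), and the adjusted call was lost without anti-miR-33 animal 1 (-0.72, adjusted p = 0.0544) and without the replicate block (-0.63, adjusted p = 0.0579). The other gene of this list to keep the call was SPARC, a matricellular protein named after its value was seen, with an adjusted change of -0.70. COL1A2, a chain of type I collagen, fell by 0.77 ± 0.09 and had an adjusted change of -0.50 ± 0.15 (adjusted p = 0.143), with 2 further probe sets at 0.01 and 0.09. COL4A2, a chain of basement membrane collagen, fell by 0.77 ± 0.08 (adjusted change -0.38 ± 0.11). TAGLN, an actin-binding protein of smooth muscle and activated stellate cells, fell by 0.92 ± 0.09 (adjusted change -0.56 ± 0.14, adjusted p = 0.0824), with 2 further probe sets at -0.13 and 0.04.

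**Figure D4:**
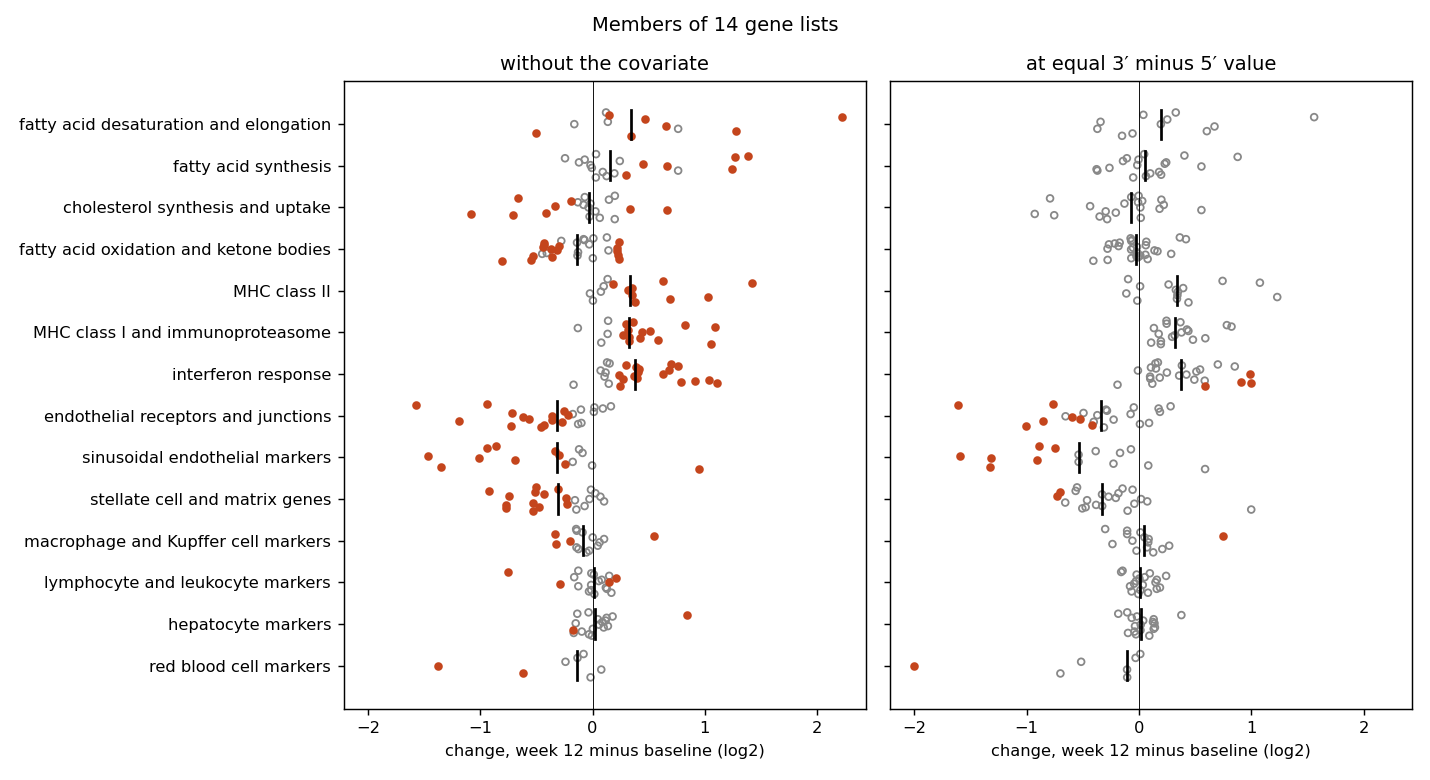
Change at week 12 relative to baseline of the tested members of 14 gene lists, without the covariate (left) and at equal 3′ minus 5′ value (right), both log2; each point is a gene, filled where limma's adjusted p was under 0.05, and the bar is the list's median. The endothelial, sinusoidal and stellate medians lie between -0.54 and -0.31 over both panels, the MHC and interferon medians lie between 0.32 and 0.38 in both, and most filled points of the other lists are open on the right.

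Antigen presentation and interferon response genes were higher at week 12. For MHC class II, 9 of 14 tested genes were higher and none lower (median 0.34 without and with the covariate). For MHC class I and the immunoproteasome, 13 of 17 were higher and none lower (median 0.33, and 0.32 with the covariate). For the interferon response, 17 of 24 were higher and none lower (median 0.38, and 0.37 with the covariate), where 11.7% of all genes were higher. The means of these 3 lists were higher in 12 of 12 animals. With the covariate, 4 interferon genes kept the call and no gene of the 2 MHC lists did, where 0.103% of all genes kept it higher. That contrast between the lists depends on the fit. With all 36 arrays HLA-DRA passed (1.41, limma adjusted p = 0.000575), as did HLA-DMA (1.39, 0.000749), PSMB8 (0.87, 0.00399) and PSMB9 (0.99, 0.0115). HLA-DMA also passed without control animal 3 (1.18, 0.0262).

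HLA-DMA, which helps load peptides onto MHC class II, rose by 1.03 ± 0.16 in 12 of 12 animals, and its adjusted change was larger, 1.23 ± 0.31 (limma adjusted p = 0.0813). CTSS, the cathepsin that trims the invariant chain, rose by 0.69 ± 0.11. PSMB8 and PSMB9, subunits of the immunoproteasome, rose by 1.09 ± 0.13 and 0.82 ± 0.14, and neither overlapped between the times. PSMB8 had 8.23, 8.79 and 9.89 at week 12, against 7.26, 7.79 and 8.11 at baseline, and an adjusted change of 0.82 ± 0.24 (adjusted p = 0.144, and 0.0401 without the replicate block). PSMB9 kept nearly the whole size, 0.78 ± 0.26, without passing (adjusted p = 0.218). B2M, the light chain of MHC class I, behaved differently at the probe set used. It had 11.61, 11.81 and 12.44 at week 12, against 9.56, 10.94 and 11.59 at baseline, and rose by 1.05 ± 0.15, but its slope on the quality value was -1.16 (slope adjusted p = 0.000446) and its adjusted change was 0.20 ± 0.14. A second probe set for B2M, at a lower level, rose by 0.49 and had an adjusted change of 0.26.

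IFI6, an interferon-induced protein of the endoplasmic reticulum and mitochondria, had 8.61, 8.82 and 9.10 at week 12, against 7.65, 8.04 and 8.53 at baseline. The ranges did not overlap, the change was 0.78 ± 0.08, and the adjusted change was 0.91 ± 0.15 (limma adjusted p = 0.00537). Its call held in each of the 12 fits that left out 1 animal. It was lost within the control animals (1.16, adjusted p = 0.0607) and within the anti-miR-33 animals (0.57, 0.529). IFI44, an interferon-induced gene with antiviral activity, rose by 1.11 ± 0.12 in 12 of 12 animals and had an adjusted change of 1.00 ± 0.22 (adjusted p = 0.0376). ISG15, a ubiquitin-like modifier, rose by 0.62 ± 0.13 in 12 of 12 and had an adjusted change of 0.99 ± 0.22 (adjusted p = 0.0406). The adjusted calls of the last 2 genes were close to the threshold, and both were lost without the replicate block, at 1.02 for IFI44 (adjusted p = 0.109) and 0.88 for ISG15 (0.0570). IFI44 lost its call without anti-miR-33 animals 1 (1.07, adjusted p = 0.106), 4 (0.89, 0.126), 5 (0.99, 0.056) or 6 (0.96, 0.0568) and without control animals 1 (0.97, 0.0645), 3 (0.99, 0.0525) or 4 (0.88, 0.163). ISG15 lost it in 9 of 12 such fits, with adjusted changes between 0.78 (without control animal 4, adjusted p = 0.174) and 1.19 (without anti-miR-33 animal 1, adjusted p = 0.0531); the other 7 left out anti-miR-33 animals 2 to 6 and control animals 2 and 6. The fourth was HERC5, the ligase that attaches ISG15, at 0.59 and named after its value was seen. IFIT1, which binds viral RNA, rose by 1.04 ± 0.15 (adjusted change 0.49 ± 0.24), and IFIH1, a sensor of viral RNA, by 0.91 ± 0.13 (adjusted change 0.59 ± 0.23).

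Markers of the leukocytes that carry MHC class II did not rise as a group beside these genes. Of 15 macrophage and Kupffer cell markers, 1 was higher and 3 were lower, where 11.7% of all genes were higher and 17.5% lower. The median change was -0.09 without and 0.05 with the covariate. The list's mean ran between 6.33 and 6.90 at week 12 and between 6.38 and 6.93 at baseline. It was lower at week 12 in 8 of 12 animals. The higher one was LYZ, lysozyme, which rose by 0.55 ± 0.09 and had an adjusted change of 0.75 ± 0.17 (limma adjusted p = 0.0403). That call was lost without anti-miR-33 animal 1 (0.59, adjusted p = 0.305), 5 (0.75, 0.0533) or 6 (0.72, 0.0657) and without control animal 1 (0.70, 0.0588), 4 (0.73, 0.137), 5 (0.75, 0.0577) or 6 (0.81, 0.0738), and without the replicate block (0.78, 0.0568). CD163, a hemoglobin scavenger receptor, MARCO, a scavenger receptor, and CSF1R, the receptor for the macrophage growth factor, fell by 0.33 ± 0.08, 0.34 ± 0.08 and 0.21 ± 0.06. Their adjusted changes were -0.24, -0.10 and -0.06. None kept the call, where only 0.873% of all genes kept it lower. Of 19 lymphocyte and leukocyte markers, 2 were higher and 2 lower (median 0.01 without and with the covariate). The mean of this list ran between 5.55 and 5.94 at week 12 and between 5.53 and 5.96 at baseline. That mean was lower at week 12 in 10 of 12 animals. PTPRC, the leukocyte common antigen, fell by 0.75 ± 0.12 in 10 of 12 animals. The part of these cells in the antigen presentation genes was not tested.

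HBB, beta globin of red blood cells, had 9.55, 10.38 and 12.33 at week 12, against 10.80, 11.99 and 13.22 at baseline. It was lower in 11 of 12 animals, by 1.37 ± 0.19 on average, and had the lowest adjusted change of all genes that kept the call, -2.00 ± 0.32 (limma adjusted p = 0.00326). The exception was anti-miR-33 animal 4, in which HBB rose by 0.68. Another 2 probe sets for HBB at a high level changed by -1.17 and -1.30, and 1 at a low level changed by 0.05. ALAS2, the heme synthesis enzyme of red cell precursors, fell by 0.61 ± 0.10, with an adjusted change of -0.70 ± 0.18 (adjusted p = 0.0913). These were the 2 lower genes among 7 tested red blood cell markers, where 17.5% of all genes were lower, and none was higher. The list's mean ran between 6.18 and 6.84 at week 12 and between 6.41 and 7.14 at baseline, and was lower at week 12 in 11 of 12 animals. The part of blood in the biopsies in other changes was not tested.

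Several of the largest rises followed RNA quality closely. SELENOT, a selenoprotein of the endoplasmic reticulum, had 8.54, 8.73 and 9.13 at week 12, against 5.83, 7.50 and 8.62 at baseline, and rose by 1.34 ± 0.18 in 12 of 12 animals. Its slope on the quality value was -1.57 (slope adjusted p = 7.23e-06), its adjusted change was 0.18 ± 0.11, and it moved by 0.19 and 0.48 in the 2 animals whose quality hardly moved. CMAHP, a gene for sialic acid modification that is a pseudogene in human, rose by 1.36 ± 0.18, with a slope of -1.56 and an adjusted change of 0.21 ± 0.12. PSAT1, an enzyme of serine synthesis, rose by 1.38 ± 0.21, with a slope of -1.73 and an adjusted change of 0.10 ± 0.17, and its second probe set changed by 0.02. YIPF5, a membrane protein of vesicle transport, rose by 1.35 ± 0.18 (slope -1.55, adjusted change 0.21 ± 0.15), while 3 further probe sets changed by -0.19, 0.16 and 0.38. The 2 drug metabolism genes ALDH1A1, a retinal dehydrogenase, and ADH4, an alcohol dehydrogenase, rose by 0.95 ± 0.14 and 1.11 ± 0.18 and had adjusted changes of 0.03 ± 0.09 and 0.15 ± 0.21. A second probe set for ADH4, at a high level, changed by 0.05. GYS2, the glycogen synthase of liver, rose by 0.75 ± 0.12 with a slope of -0.93 (slope adjusted p = 0.000326). For these genes the change between the time points and the change in RNA quality cannot be told apart in most animals.

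The remaining genes with the largest changes showed other patterns. RGCC, a cell cycle regulator induced by complement, spread widely, with 6.15, 7.45 and 9.05 at week 12, against 3.90, 5.82 and 8.01 at baseline. It rose by 1.80 ± 0.38 (higher in 10 of 12), with an adjusted change of 1.20 ± 0.72 (limma adjusted p = 0.562). DUSP1, a phosphatase of MAP kinases that stress and glucocorticoids induce, rose by 1.34 ± 0.20 in 11 of 12 animals and kept its size with the covariate, 1.36 ± 0.39 (adjusted p = 0.125), while 2 further probe sets changed by 0.32 and 0.05. BEX1, a small adaptor protein, fell by 1.35 ± 0.14 in 12 of 12, and its adjusted change was smaller (-0.86 ± 0.24, adjusted p = 0.115). IGFBP2, a carrier of insulin-like growth factors, rose by 1.26 ± 0.18 (adjusted change 1.25 ± 0.34, adjusted p = 0.106). IGF1R, the receptor for insulin-like growth factor 1, had 6.45, 6.75 and 7.25 at week 12, against 7.23, 7.80 and 8.26 at baseline, and fell by 1.02 ± 0.09 and had an adjusted change of -0.98 ± 0.18 (adjusted p = 0.00818). A second probe set for IGF1R fell by 1.07, and another, at a lower level, changed by -0.07. IGFBP3, the main carrier of these factors in blood, fell by 0.71 ± 0.06 and had an adjusted change of -0.75 ± 0.11 (adjusted p = 0.00183). Of 13 genes of this axis, 3 were higher and 5 lower, where 11.7% of all genes were higher and 17.5% lower.

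RRM2, the small subunit of ribonucleotide reductase, was, by adjusted change, the second highest of the genes that kept the call. It had 5.71, 6.37 and 7.90 at week 12, against 4.96, 5.36 and 6.78 at baseline, and rose by 0.97 ± 0.12 in 12 of 12 animals. The adjusted change was 1.14 ± 0.23 (limma adjusted p = 0.0181), and the call was lost without anti-miR-33 animal 1 (1.07, adjusted p = 0.127) or control animal 4 (1.00, adjusted p = 0.0954) and without the replicate block (1.17, adjusted p = 0.166). TYMS, the thymidylate synthase, rose by 0.63 ± 0.07 (adjusted change 0.53 ± 0.13, adjusted p = 0.0723), whereas RRM1, the large subunit of the reductase, fell by 0.41 ± 0.07. Of 21 cell cycle genes, 6 were higher and 2 lower (median 0.08), where 11.7% of all genes were higher and 17.5% lower. TRIM9, a ubiquitin ligase known from neurons, rose by 0.64 ± 0.12 (higher in 10 of 12; adjusted p = 0.14 without the replicate block). It had an adjusted change of 1.08 ± 0.21 (adjusted p = 0.0133), and lost the call without anti-miR-33 animal 1 (1.02, adjusted p = 0.0937) and without the replicate block (0.68, adjusted p = 0.592). PLAAT2, an acyltransferase that acts on phospholipids, rose by 0.79 ± 0.12 in 12 of 12 animals. Its adjusted change was 1.02 ± 0.22 (adjusted p = 0.0317), and lost it without control animal 2 (0.95, adjusted p = 0.0513), 4 (0.79, 0.13) or 6 (1.02, 0.0888). Its 2 further probe sets changed by -0.02 and 0.11.

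The week 4 biopsies of the same animals, taken under injections but before the diet by the study's plan, show when these changes were present (1 of the 12 week 4 arrays carries the diet in its label instead). Both contrasts share their arrays with the one described above, so the values are set side by side with no test between them. They are also given without the covariate: the 3′ minus 5′ value averaged 1.94 ± 0.41 at week 4 (1.09 to 2.45; SD, n = 12), was lower than at baseline in 10 of 12 animals, by 0.63 ± 0.13 (SE) on average, and changed by -0.11 ± 0.11 from week 4 to week 12. Most of the shift in this average thus lies in the first interval, but its 2 genes differed in timing. In most animals the GAPDH value fell again after week 4, while the ACTB value rose. In anti-miR-33 animal 2, for example, GAPDH had 2.68 at baseline, 2.57 at week 4 and 1.89 at week 12. ACTB had 2.83, 1.86 and 1.94 in that animal. The part of RNA quality in the changes of either interval was not tested. Between baseline and week 4, 2107 genes were higher (15.5%) and 2903 lower (21.3%), and between week 4 and week 12, 2046 were higher (15%) and 1884 lower (13.8%). TIE1 changed by -1.27 to week 4 and by -0.30 afterwards (limma adjusted p = 2.69e-08 and 0.0951). CETP changed by -1.58 and then 0.02, EFNB2 by -1.69 and then 0.05, and FCN2 by -1.33 and then -0.13. For these 4 genes the unadjusted fall to week 4 was larger than the change afterwards. CLEC4G fell in both intervals, by 0.97 and 0.38, as did ENG, by 0.65 and 0.54. IFI6 rose by 0.73 and then moved by 0.06, and IFI44 by 1.03 and then 0.08, with adjusted p of 0.588 and 0.58 for the second interval. SCD rose by 0.60 and then by 1.63 (adjusted p = 0.0298 and 4.82e-06), and ELOVL5 by 0.63 and 0.64. HLA-DRA rose by 0.77 and 0.65. Other changes were called in the second interval alone. DUSP1 changed by -0.13 and 1.47, HMGCS1 by -0.31 and -0.77, SQLE by 0.04 and -0.71, NR0B2 by 0.21 and 0.83, INSIG1 by -0.24 and 0.90, LYZ by -0.11 and 0.66, and HBB by 0.21 and -1.59, each with adjusted p above 0.05 for the first interval. Whether the 2 intervals differed was not tested.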

How the data were processed

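Liver RNA was labelled by the Enzo method, per the labels' protocols, and hybridised to 1 human array per biopsy. The deposited log2 values come from RMA, per the submitters' processing notes; neither its version nor whether all arrays were run together is stated in the sources used. They were used as deposited. Of 54675 probe sets, 41091 have 1 gene in the platform annotation, 1801 have several and 11777 are not listed. Each gene took its probe set of highest mean, and 13634 genes with a mean of at least 4.459, the median of all probe sets, were tested. The number of arrays limits the precision.

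Changes were fitted in R 4.3.3 with limma 3.58.1 with the animal as a fixed term, and p-values were adjusted (Benjamini-Hochberg) over all genes; a call is an adjusted p under 0.05. The covariate is the mean 3′ minus 5′ difference of GAPDH and ACTB. The fit was also run on data simulated from the covariate fit itself with independent noise. That run cannot show how the fit behaves where genes vary together or quality acts in another way. The pairing comes from the animal identity in the labels, and same-animal deviations correlated at 0.0574 to 0.418, above 0.1 in 10 of 12 pairs. The week 12 deviations correlated best with the baseline deviations of the same animal in 9 of 12 pairs. Animals are numbered by their week 12 replicate. Alternatives changed the block, samples, filter, probe set, normalization, prior and covariate. The members, the 33 gene lists and the named genes were chosen with earlier results of these data known. Named genes are the 4 given markers, the 10 largest called changes each way, the 8 largest kept each way, and up to 4 members of smallest p per list; others are marked as named after their values were seen.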

Additional observations from a re-analysis of the deposited data

Results flagged for a closer look

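In 10 of 196 groups of 6 animals checked (the within-animal change of a named gene in 1 arm), a single animal lay far from the other 5; chance flags about 1 in 20 groups. HBB changed by 0.68 in anti-miR-33 animal 4, where the other 5 of its arm fell. KIT changed by -0.69 in control animal 5, the smallest fall of that arm, and on the array that stood apart. TRIM9 changed by 1.56 in control animal 1, above the rest of its arm. FADS2 changed by 1.43 in anti-miR-33 animal 2, the highest of its arm. SQLE changed by -1.83 in control animal 6, the largest fall of that arm, in an animal whose quality value hardly moved. Anti-miR-33 animal 1, whose quality value did not fall, stood apart for 3 genes: HSD17B12 changed by -0.03, ATP8B1 by 0.02 and GYS2 by -0.28, while the other 5 of its arm moved further. APOM changed by 0.36 in control animal 3, and CRP, the C-reactive protein, by 2.15 in anti-miR-33 animal 4, which also had the largest change of the quality value.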

How the results depend on the processing

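Without the covariate, no named gene changed direction under any alternative, and 1326 higher and 2117 lower genes were called without the replicate block. Within 1 arm the counts were 895 and 1274 (anti-miR-33 animals) and 446 and 719 (control animals), with 6 animals each. Leaving out 1 animal gave 1348 to 1701 higher and 2089 to 2539 lower genes, a quality change of -0.81 to -0.66, and 0 calls for the difference between arms. ASGR1 lost its call in 6 of those 12 fits (-0.18 to -0.14) and without the replicate block (-0.18, adjusted p = 0.0576). With the covariate, leaving out 1 animal gave 7 to 17 higher and 77 to 119 lower genes. The counts were 43 and 261 with the animal as a random block, 101 and 332 with all 36 arrays, 1 and 7 in the anti-miR-33 animals, and 1 and 5 in the control animals; 201 genes were lower without the replicate block. All 133 kept genes had the same sign in every alternative that tested them, and 76 to 133 of them stayed called except within 1 arm (6 in the anti-miR-33 and 5 in the control animals).

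Adjusted calls of named genes were also gained. Of 65 such genes, 21 gained the call with all 36 arrays, 9 with a random block and 8 without the replicate block. With all 36 arrays these included FADS2 (0.65, limma adjusted p = 0.0102), DUSP1 (1.32, 0.00936), BEX1 (-0.99, 0.00499) and IGFBP2 (1.12, 0.0264). IGFBP2 also passed without control animal 4 (1.68, 0.0102). Further adjusted calls of named genes were lost under other settings. With a random block these were RRM2 (1.16, adjusted p = 0.0944), TRIM9 (0.76, 0.432) and IFI44 (1.02, 0.0582). With the mean of probe sets they were KIT (-1.33, 0.0577), NR0B2 (1.36, 0.0572), PLAAT2 (0.42, 0.104), IFI44 (1.00, 0.0564), ISG15 (0.99, 0.0620), LYZ (0.72, 0.124) and KLF2 (-0.65, 0.0640). With the robust prior, KIT (adjusted p = 0.147), NR0B2 (0.150), RRM2 (0.0669), PLAAT2 (0.0854), IFI44 and ISG15 (0.103 each) and KLF2 (0.0973) were lost. Quantile normalization lost IFI44 (1.04, 0.0556) and ISG15 (1.01, 0.0531). ACTB alone as covariate lost NR0B2 (1.32, 0.0604), ISG15 (0.95, 0.0750) and KLF2 (-1.04, 0.0528), and 2 covariates lost KIT (-1.36, 0.0617), NR0B2 (1.26, 0.0827), PLAAT2 (1.00, 0.0671), ISG15 (0.89, 0.0881) and KLF2 (-0.99, 0.0740). Probe sets not given beside their gene that moved less than 50% as far were those of FADS2 (0.21), CTSS (0.17), COL4A2 (-0.30), STAB2 (-0.27), CP (0.10), SEL1L (0.26) and JUND (-0.09 and -0.18).

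Under these alternatives, the adjusted changes of named genes turned sign only where the gene was not called with the covariate. Without the replicate block, PSAT1 had -0.16, ADH4 -0.11 and ABCA1 0.27, and with a random block -0.11, -0.060 and 0.21. ABCA1 had 0.29 with all 36 arrays, YIPF5 -0.081 with the mean of its probe sets, and RGCC -0.72 in the anti-miR-33 animals. RGCC had 2.76 in the control animals and passed there (limma adjusted p = 0.0496). In the control animals, PSAT1 had -0.0022 and ALDH1A1 -0.041. Leaving out 1 animal moved THRSP between -0.032 and 0.80, PSAT1 between -0.077 and 0.23, ALDH1A1 between -0.017 and 0.092, ADH4 between -0.052 and 0.27, and ABCA1 between -0.15 and 0.018. The cause was not tested. Zero change of RNA quality lies at the edge of the animals' range, human probes may miss monkey transcripts, and where probe sets of a gene disagreed only the brighter one was tested.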

Other observations

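The lists of acute phase, complement and coagulation, drug metabolism, endoplasmic reticulum stress and oxidative phosphorylation genes held more higher than lower genes at week 12, where 11.7% of all genes were higher and 17.5% lower. No member of these lists kept the call with the covariate, where only 0.103% of all genes kept it higher and 0.873% lower. Of 14 acute phase genes, 7 were higher and 1 lower (median 0.19, and 0.03 with the covariate), among them LBP, which binds bacterial lipopolysaccharide and rose by 0.77 ± 0.12, and CP, the copper carrier ceruloplasmin, which rose by 0.42 ± 0.07. Of 31 complement and coagulation genes, 11 were higher and 4 lower (median 0.10, and -0.03 with the covariate). F5, coagulation factor V, rose by 0.56 ± 0.07, with a second probe set at -0.40 and a mean over both that did not pass (0.08, limma adjusted p = 0.0968), and C7, a part of the membrane attack complex, fell by 0.47 ± 0.07. Of 26 drug metabolism genes, 10 were higher and 5 lower (median 0.10), and CYP3A4 rose by 0.36 ± 0.06, with 2 further probe sets at 0.30 and 0.41 and another 2 at -0.11 and -0.24. Of 24 genes of endoplasmic reticulum stress, 7 were higher and 1 lower (median 0.18, and -0.06 with the covariate), with SEL1L at 0.52 ± 0.09 and PDIA6 at 0.49 ± 0.10. Of 31 oxidative phosphorylation genes, 7 were higher and 3 lower (median 0.04).

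Of 23 genes of glucose metabolism and insulin signalling, 7 were higher and 6 lower, where 11.7% of all genes were higher and 17.5% lower. INSR, the insulin receptor, fell by 0.55 ± 0.08 in 11 of 12 animals, while 4 further probe sets changed by -0.04 to 0.13 and the mean over its probe sets did not pass (-0.09, limma adjusted p = 0.119). The adjusted change of INSR was -0.11. No gene of this list kept the call with the covariate, where only 0.103% of all genes kept it higher and 0.873% lower. Of 25 immediate early and stress genes, 6 were higher and 6 lower, and only KLF2 kept the call. JUND fell by 0.82 ± 0.16 and had an adjusted change of -0.10. Of 8 cholangiocyte markers, 3 were higher (ANXA4 by 0.60 ± 0.09, ONECUT1 by 0.74 ± 0.12 and EPCAM by 0.30 ± 0.09) and none lower. EPCAM lost its call without the replicate block (adjusted p = 0.473). With the covariate no cholangiocyte marker kept the call, and the list's median went from 0.21 to 0.10. The adjusted changes were 0.15 for ANXA4 and -0.01 for EPCAM.

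The smaller marker lists moved little. Of 7 plasma cell markers 1 was higher and 1 lower, of 5 neutrophil and monocyte markers 1 was higher, and of 6 fat and muscle markers 1 was lower. Among all genes, 11.7% were higher and 17.5% lower. Among 3862 tested probe sets with no gene in the annotation, 243 were higher and 388 lower, and 0 and 5 with the covariate.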
